A study of Mus musculus with 34 samples.

Results

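The 10 genes of the cadherin switch were read out in J1 mESCs deprived of LIF, with and without Royalactin. They were picked by symbol out of the 23366 in the deposited table of normalized counts, by a rule that uses no measured value. The 10 genes were, however, chosen with earlier results of these data known. They are the cadherins Cdh1 and Cdh2, the epithelial genes Epcam, Cldn6 and Esrp1, and the transcription factors Snai1, Snai2, Zeb1, Zeb2 and Twist1. J1 is a mouse embryonic stem cell line, and both groups were cultured in serum medium on gelatin without LIF, the cytokine that normally holds mESCs undifferentiated. In 1 group (serum/-LIF, 2 libraries) nothing was added, and in the other (serum/-LIF + Royalactin, 2 libraries) the medium also held purified Royalactin, a honeybee royal jelly protein, at 0.5 mg/ml. The question put to these genes is whether mESCs kept without LIF differ in epithelial and mesenchymal identity when Royalactin is present. A condition is represented by 1 cell line and 2 libraries, and the labels do not tie the libraries to separate cultures. The p-values here therefore measure only the spread between these libraries, which in limma is pooled in part over all tested genes.

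Epithelial cells hold on to each other through E-cadherin, and cells that leave an epithelium often exchange it for N-cadherin in an epithelial-to-mesenchymal transition (EMT). The Snail, Zeb and Twist families of transcription factors drive that exchange, and the Snail and Zeb proteins do so by binding short E-box sequences in the promoters of epithelial genes, which they repress. Undifferentiated mESCs grow as compact colonies joined by E-cadherin, and early lineages such as mesoderm pass through an EMT as they form.

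The depth behind the values was uneven. Between 14737796 and 17597818 reads were assigned to genes per library. The ribosomal RNA precursor Rn45s took 46.6% and 21.6% of them in serum/-LIF replicates 1 and 2 and 38.4% and 9.08% in serum/-LIF + Royalactin replicates 1 and 2, which left 7878527 to 15999458 reads for all other genes. After the scaling by the authors, 1 read was worth a normalized count of 1.34 and 1.04 for serum/-LIF and 1.01 and 0.688 for Royalactin (replicates 1 and 2). The undifferentiated state was checked with 10 marker genes of embryonic stem cells. Their summed normalized count was 26162 and 31709 in serum/-LIF and 35420 and 42624 with Royalactin, none of the 10 was at 0 in every library, and 4 rose with Royalactin (adjusted p under 0.05, limma), where 0.331% of all tested genes rose. These calls were lost without serum/-LIF replicate 1 or either Royalactin library.

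The letters that Snail and Zeb factors are known to bind, CAGGTG and the reverse complement CACCTG, were looked for in the 250 bases upstream of annotated gene starts (RefSeq, GRCm38.p6). Of the 10 genes, 5 matched an entry: Cldn6, Epcam, Snai1, Twist1 and Zeb2. Cdh1, Cdh2, Esrp1, Zeb1 and Snai2 had no entry and were not searched. The letters were present in 3 of these 5, Cldn6, Epcam and Snai1, whereas 17.2% of all 32851 upstream windows of that length and 19.4% of 27025 genes had them. The windows are shown because Cldn6 and Epcam are the epithelial genes, and Snai1 the repressor, in which the letters were found, with capitals marking the match. On mm9, to which each matches exactly at 1 place, they lie at chr17:23816082-23816331 (Cldn6), chr17:88035069-88035318 (Epcam) and chr2:167363445-167363694 (Snai1), all on the plus strand and directly before the annotated start.
Cldn6: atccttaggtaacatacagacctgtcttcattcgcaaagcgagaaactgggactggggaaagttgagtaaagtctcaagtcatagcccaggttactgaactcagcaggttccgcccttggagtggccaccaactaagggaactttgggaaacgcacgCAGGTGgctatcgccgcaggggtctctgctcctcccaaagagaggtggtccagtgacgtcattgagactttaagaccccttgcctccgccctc
Epcam: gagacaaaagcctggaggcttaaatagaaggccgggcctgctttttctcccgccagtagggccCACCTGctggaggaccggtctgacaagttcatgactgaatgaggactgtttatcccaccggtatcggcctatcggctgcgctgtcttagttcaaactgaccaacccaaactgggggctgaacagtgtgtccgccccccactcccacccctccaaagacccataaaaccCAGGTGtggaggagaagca
Snai1: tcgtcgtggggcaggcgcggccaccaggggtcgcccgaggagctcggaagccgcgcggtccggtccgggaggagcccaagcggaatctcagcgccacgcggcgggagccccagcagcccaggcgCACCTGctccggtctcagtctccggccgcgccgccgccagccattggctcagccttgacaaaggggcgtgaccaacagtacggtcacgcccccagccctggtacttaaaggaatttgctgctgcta
In Cldn6 the match ended 88 bases before the start. Epcam held a pair of matches, in opposite orientations, ending 182 and 14 bases before the start, and the Snai1 match ended 121 bases before it. Such a match describes the sequence and is neither a bound site nor a cause. No match in Twist1 and Zeb2 means only that these letters are not in those windows.

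Across the 10 genes, 8 had a mean normalized count of at least 10 and were tested, and 0 passed an adjusted p of 0.05 in limma, against 64 of all 12993 genes tested (0.493%). At an unadjusted p under 0.05, limma returned 3 of the 8 (Zeb1, Twist1 and Cldn6) and 1214 of all tested genes. Adding the limit of a 2-fold change that the study used kept the same 3, with 1 higher, where 3.52% of tested genes were, and 2 lower, where 3.61% were. Leaving out Royalactin replicate 2 kept only Cldn6, leaving out serum/-LIF replicate 1 kept Zeb1 and Twist1, leaving out serum/-LIF replicate 2 kept Zeb1 and Cldn6, and leaving out Royalactin replicate 1 kept all 3. Groups that did not overlap were found in 1 of the 8 in the higher direction (19.7% of tested genes) and in 4 of the 8 in the lower direction (18.9%). The median log2 fold change of the 8 was -0.54, and that of all tested genes was -0.0076. In bulk RNA such as this, fewer cells of a type and less RNA per cell cannot be told apart, for these and all genes that follow.

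**Figure D1:**
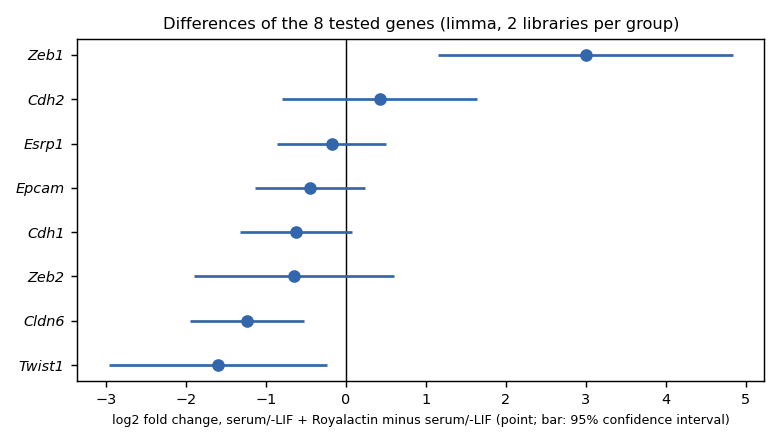
Log2 fold change of serum/-LIF + Royalactin minus serum/-LIF (points) with its 95% confidence interval (bars) from limma for the 8 tested genes, 2 libraries per group. The intervals of Zeb1 (above 0), Cldn6 and Twist1 (both below 0) do not include 0, while those of the other 5 genes do.

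The epithelial side was marked by 4 genes: Cdh1, Epcam, Cldn6 and Esrp1. Their mean was lower with Royalactin in every case, but in the scaling by the authors the groups separated only for Cdh1 and Cldn6. Scaled instead to the total without Rn45s, the groups of Cdh1 overlapped, and those of Epcam and Cldn6 separated. None of the 4 passed an adjusted p of 0.05 (limma, Benjamini-Hochberg). Cdh1 encodes E-cadherin, the adhesion protein of epithelial adherens junctions (chr8:109127251-109194146, plus strand). Its normalized count was 5316 and 3395 in serum/-LIF (replicates 1 and 2, in this order throughout) and 3255 and 2325 with Royalactin. Both Royalactin libraries lay below both serum/-LIF libraries, by a narrow margin. The log2 fold change, taken on log2(normalized count + 1) as for all genes here, was -0.63 (SE 0.32, 95% confidence interval -1.32 to 0.07, adjusted p = 0.604, limma).

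Epcam encodes a homophilic adhesion molecule of epithelia that is also abundant on embryonic stem cells (chr17:88035319-88050446, plus strand). It was measured at 3631 and 5850 normalized counts in serum/-LIF and at 3065 and 3694 with Royalactin. In the scaling by the authors the higher Royalactin library exceeded the lower serum/-LIF library, so the groups overlapped. Its log2 fold change of -0.45 had a standard error of 0.32 and an interval of -1.14 to 0.23 (adjusted p = 0.720, limma).

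Cldn6 encodes claudin 6, a tight junction protein of early embryonic epithelia (chr17:23816332-23819413, plus strand). It reached 1363 and 886 normalized counts in serum/-LIF, against 458 and 474 in the Royalactin libraries. The Royalactin values nearly coincided, and both were far below the lower serum/-LIF value. In reads, these were 1019 and 856 against 455 and 689. The log2 fold change was -1.24 (SE 0.33, interval -1.95 to -0.52), with an adjusted p of 0.172 (limma). Esrp1 encodes an RNA-binding protein that sets epithelial splice forms (chr4:11259080-11313930, minus strand). Its values were 1107 and 853 in serum/-LIF and 993 and 741 with Royalactin. The groups were interleaved, the log2 fold change was -0.18 (SE 0.32, interval -0.87 to 0.51, adjusted p = 0.903, limma), and its sign turned when serum/-LIF replicate 1 (0.0078) or Royalactin replicate 2 (0.031) was left out. Exons of Esrp1 share 127 bases with Gm16652, which is transcribed from the other strand. Use of strand in the counting is not given in the sources used here.

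**Figure D2:**
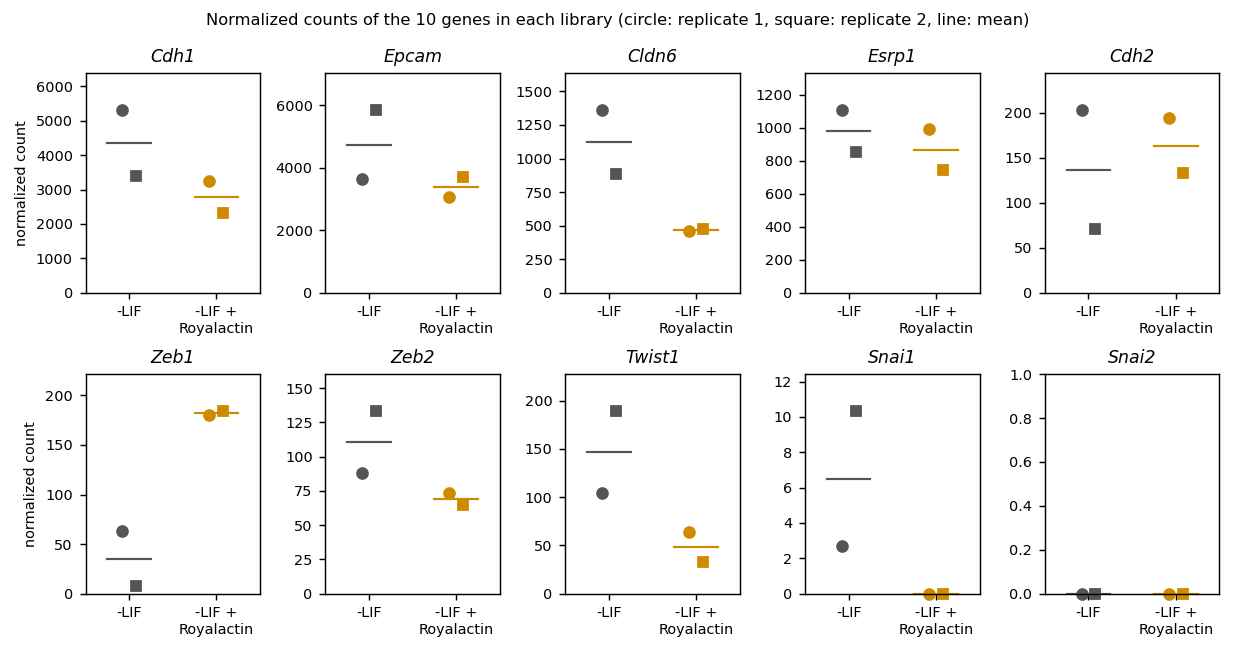
Normalized count (linear axis from 0, a separate scale per gene) of each of the 10 genes in the 4 libraries, with circles for replicate 1, squares for replicate 2 and a line at the group mean. Cldn6, Cdh1, Zeb2, Twist1 and Snai1 have both Royalactin points below both serum/-LIF points, Zeb1 has both above, and Snai2 is at 0 throughout.

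Cdh2 encodes N-cadherin, the cadherin of neural and mesenchymal cells (chr18:16747386-16967755, minus strand). It was low and variable, at 203 and 70.4 normalized counts in serum/-LIF and 194 and 133 with Royalactin. Both Royalactin values fell inside the range of the serum/-LIF pair. The log2 fold change of 0.42 (SE 0.57, interval -0.80 to 1.64, adjusted p = 0.869, limma) turned to -0.34 without serum/-LIF replicate 2. Of 99 exon tiles of 75 bases, 20 (20.2%) also match the genome elsewhere with up to 2 mismatches, so some reads of this gene could have been lost or shared.

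The balance of the cadherins was taken as the ratio of the Cdh1 to the Cdh2 normalized count within each library. It was 26.2 and 48.2 in serum/-LIF and 16.8 and 17.5 with Royalactin. E-cadherin RNA therefore exceeded N-cadherin RNA in all 4 libraries, and corrected for exon length the ratio was 46.1 and 85.1 against 29.6 and 30.9. On the log2 scale the ratio averaged 5.15 ± 0.62 in serum/-LIF and 4.10 ± 0.04 with Royalactin (SD, n = 2 per group). The difference of -1.05 separated the groups, but a two-sided exact permutation test of 2 against 2 libraries gave p = 0.333, the smallest it can give.

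**Figure D3:**
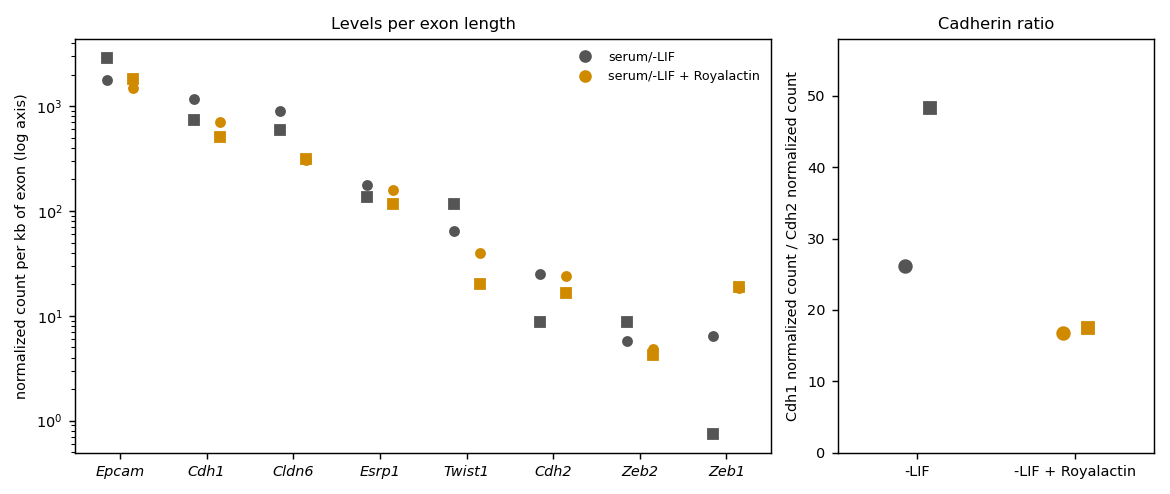
Left, normalized count per kb of exon (log axis) of the 8 genes with a mean of at least 10, ordered by level, with grey for serum/-LIF and orange for serum/-LIF + Royalactin, circles for replicate 1 and squares for replicate 2. Right, ratio of Cdh1 to Cdh2 normalized counts per library (linear axis from 0), 26.2 and 48.2 in serum/-LIF against 16.8 and 17.5 with Royalactin.

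Levels could be compared between genes only per kb of exon. In serum/-LIF the mean normalized count per kb was 2324 for Epcam, 952 for Cdh1, 747 for Cldn6, 155 for Esrp1, 90.9 for Twist1, 17.0 for Cdh2, 7.22 for Zeb2, 4.02 for Snai1 and 3.61 for Zeb1. The 4 epithelial genes thus stood above every EMT factor and Cdh2. Neighbours in that order whose library values overlapped were Cdh1 and Cldn6, Zeb2 and Snai1, and Snai1 and Zeb1. With Royalactin the means were 1656 for Epcam, 610 for Cdh1, 309 for Cldn6, 137 for Esrp1, 29.9 for Twist1, 20.3 for Cdh2, 18.8 for Zeb1 and 4.49 for Zeb2. Here Twist1 overlapped Cdh2 and Cdh2 overlapped Zeb1, and Zeb1 stood above Zeb2 in both libraries. The epithelial genes kept their order and again stood above the rest.

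Among the EMT factors, Zeb1 was higher with Royalactin, Twist1 and Zeb2 were lower, and the Snail genes were close to or at 0. Zeb1 encodes a zinc finger repressor of Cdh1 (chr18:5591858-5775465, plus strand). It was at 62.9 and 7.25 normalized counts in serum/-LIF, from 47 and 7 reads, and at 180 and 184 with Royalactin, from 179 and 268 reads. The Royalactin libraries were alike, whereas the serum/-LIF libraries differed widely from each other, and the groups did not overlap. The log2 fold change was 3.0 (SE 0.86, interval 1.15 to 4.84), with an adjusted p of 0.200 (limma). Its size rested on which serum/-LIF library was used, being 1.52 without replicate 2 and 4.47 without replicate 1.

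Zeb2 encodes the paralogous repressor (chr2:44839154-44972915, minus strand). Its values ran the other way, at 88.3 and 134 in serum/-LIF and 73.4 and 64.7 with Royalactin. The groups did not overlap, but the margin was small and the log2 fold change of -0.65 (SE 0.58, interval -1.90 to 0.60) had an adjusted p of 0.788 (limma). Exons of Zeb2 share 458 bases with Gm13476 on the opposite strand and 5 bases with AL929120.1 on the same strand.

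Twist1 encodes a basic helix-loop-helix factor of mesoderm and neural crest (chr12:34642536-34644682, plus strand). It was counted at 104 and 189 in serum/-LIF and at 64.4 and 32.4 with Royalactin, from 78 and 183 against 64 and 47 reads. Both Royalactin libraries were below both serum/-LIF libraries. The log2 fold change was -1.60 (SE 0.64, interval -2.97 to -0.23), with an adjusted p of 0.428 (limma).

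The Snail genes were too low to test. Snai1, a zinc finger repressor that acts early in gastrulation (chr2:167363695-167368314, plus strand), was at 2.67 and 10.4 normalized counts in serum/-LIF, which are 2 and 10 reads, and at 0 in both Royalactin libraries. A count of 0 allows up to 3 reads in a library, a limit above the 2 reads of serum/-LIF replicate 1. Snai2, the relative best known from neural crest (chr16:14705945-14709488, plus strand), was at 0 in all 4 libraries, and its RNA was therefore not detectable at this depth. These floors cover counting error only.

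The partners of these genes were read from lists of related genes. Beside their counts stand the shares of all tested genes without overlap, 18.9% lower and 19.7% higher. The 10 adherens junction partners of the cadherins, such as catenins and nectins, had no call, a median log2 fold change of 0.09, and 5 genes on either side of 0. Vcl, whose product vinculin links the junction to actin, had the lowest value, at 2600 and 1971 normalized counts in serum/-LIF and 1362 and 1111 with Royalactin (log2 fold change -0.88, SE 0.30, adjusted p = 0.334, limma). Its exons overlap a gene on the opposite strand over 2087 bases. The highest was Ctnna2, an alpha-catenin, at 2.67 and 23.8 against 29.2 and 6.88, which do not separate (0.69, SE 1.54, adjusted p = 0.929).

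Of 21 other cadherins, 6 were at 0 in every library, 7 were tested and none was called or separated the groups, with a median of -0.72. Cdh9 gave the lowest value, with 48.1 and 157 normalized counts in serum/-LIF and 59.3 and 22.7 with Royalactin (log2 fold change -1.22, SE 0.79, adjusted p = 0.685, limma). Cdh11, a mesenchymal cadherin, gave the highest and was nearly level at 38.8 and 48.6 against 47.3 and 46.8 (0.11, SE 0.74, adjusted p = 0.977). In the scaling by the authors Cdh1 was thus the only cadherin among those tested whose groups did not overlap. With the total without Rn45s the groups of Cdh1 overlapped as well.

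Among 19 other claudins, 7 were at 0 in every library and 7 were tested, again with no call. The median log2 fold change was -0.77, and 3 were lower and 1 higher without overlap. Cldn5, known from endothelium, was listed at 0 and 2.07 normalized counts in serum/-LIF and at 10.1 and 33.7 with Royalactin, and Cldn9 at 25.4 and 10.4 against 0 and 15.8. These were the extremes of the list (3.48, SE 2.08, adjusted p = 0.662, and -2.08, SE 1.87, adjusted p = 0.790, limma), both at low counts. The lower level of Cldn6 was accompanied by 1 other claudin past the 2-fold and unadjusted limits, Cldn7, which was picked out after its values were seen and stood at 497 and 302 against 98.6 and 143 (log2 fold change -1.70, adjusted p = 0.152).

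The 14 tight junction and polarity genes found in the table, of 15 symbols listed, had no call, a median of -0.44, and 7 lower and 2 higher without overlap (18.9% and 19.7% of all tested genes). Marveld3, a tight junction membrane protein gene, had 152 and 91.1 normalized counts in serum/-LIF and 46.3 and 22.7 with Royalactin (log2 fold change -1.83, SE 0.69, adjusted p = 0.398, limma). F11r, which encodes junctional adhesion molecule A, had the highest value of the list, at 251 and 324 against 358 and 378 (0.37, SE 0.37, adjusted p = 0.819).

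Keratins were the only epithelial genes of these lists with a call. Of 10 desmosome and simple keratin genes, 9 were tested and 2 fell with Royalactin at an adjusted p under 0.05, where 0.162% of all tested genes fell. Krt18, an intermediate filament gene of simple epithelia (chr15:101858647-101862457, plus strand), was at 732 and 731 normalized counts in serum/-LIF and 111 and 227 with Royalactin (log2 fold change -2.20, SE 0.41, adjusted p = 0.0336, limma). Krt8, its obligate partner (chr15:101827142-101834773, minus strand), was at 883 and 897 against 104 and 297 (-2.34, SE 0.45, adjusted p = 0.0400), but 88.9% of its exon tiles also match elsewhere, and its count is uncertain for that reason. Both calls were lost in 9 of 14 alternatives, among them leaving out any 1 library. With the total without Rn45s the adjusted p was 0.0512 for Krt18 and 0.0578 for Krt8 (limma). It was 0.0546 and 0.0721 with upper-quartile scaling, and 0.0827 and 0.114 with a pseudocount of 0.1. Over the 14 alternatives the log2 fold change ran from -2.71 to -1.68 for Krt18 and from -3.09 to -1.58 for Krt8. Krt19, a further simple keratin, had 169 and 70.4 against 1.01 and 37.2 (-3.65, SE 1.23, adjusted p = 0.320), and Krt7 had 10.7 and 14.5 against 26.2 and 26.2 (1.01, SE 1.12, adjusted p = 0.835).

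**Figure D4:**
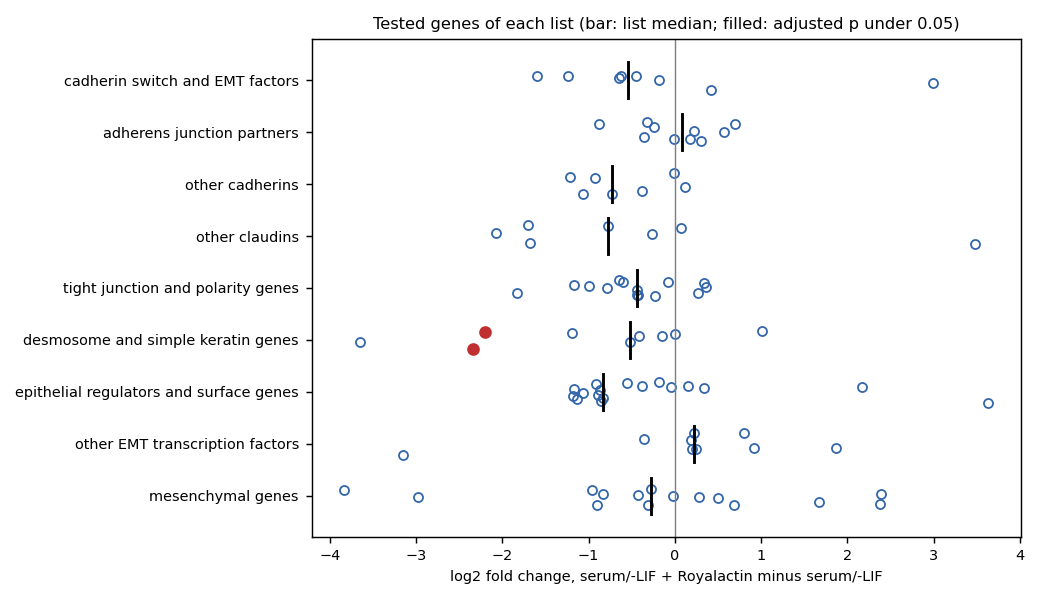
Log2 fold change of serum/-LIF + Royalactin minus serum/-LIF for every tested gene of the 10 cadherin switch and EMT genes and of the related lists (1 row per list), with a bar at the list median and filled points for an adjusted p under 0.05. The filled points are Krt18 (-2.20) and Krt8 (-2.34), and the list medians lie between -0.84 and 0.22.

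The 17 tested of 19 epithelial regulators and surface genes had no call and a median of -0.84, with 9 lower and 3 higher without overlap (18.9% and 19.7% of all tested genes). Grhl3, a grainyhead-like factor of surface epithelium, was at 20.1 and 1.04 normalized counts in serum/-LIF and at 94.5 and 68.1 with Royalactin (log2 fold change 3.63, SE 1.21, adjusted p = 0.312, limma). Ap1m2, an epithelial sorting adaptor subunit, was at 330 and 620 against 144 and 273 (-1.19, SE 0.45, adjusted p = 0.398). In both genes the groups separated, in opposite directions.

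The mesenchymal side was described in the same way. Of 16 other EMT transcription factors, 9 were tested, none was called, and the median was 0.22, with 4 higher and 1 lower without overlap. Tbx3, a T-box factor that undifferentiated mESCs also express, was at 24.1 and 107 normalized counts in serum/-LIF and 295 and 121 with Royalactin (log2 fold change 1.87, SE 0.72, adjusted p = 0.404, limma). Foxc1, a forkhead factor of mesoderm, was at 48.1 and 7.25 against 0 and 4.13 (-3.15, SE 2.01, adjusted p = 0.680). Tbx3 was the only gene of this list past the 2-fold and unadjusted limits.

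Of 22 mesenchymal genes, 15 were tested and none was called, with a median of -0.27, 4 higher and 5 lower without overlap, and S100a4, Pdgfrb and Postn at 0 in every library. Lox, a collagen cross-linking enzyme gene, had the lowest value, at 46.8 and 44.5 normalized counts in serum/-LIF and 0 and 9.64 with Royalactin (log2 fold change -3.84, SE 1.54, adjusted p = 0.432, limma). The summed normalized count of the 22 genes was 6669 and 4606 in serum/-LIF and 9292 and 6143 with Royalactin, so the groups overlapped. Most of the sum with Royalactin was Fn1, a gene picked out after its values were seen, at 2007 and 954 against 6072 and 3227. Its log2 fold change was 1.68 (SE 0.39, adjusted p = 0.105, limma). Without Fn1, the sums were lower in both Royalactin libraries than in both serum/-LIF libraries. At the 2-fold and unadjusted limits, 2 genes of the list were higher and 2 lower (3.52% and 3.61% of all tested genes).

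Markers of other cell types that such cultures could hold were measured beside these genes. The 8 neural progenitor markers summed to 1918 and 1378 normalized counts in serum/-LIF and to 843 and 672 with Royalactin, and Nes, the intermediate filament gene nestin, fell from 1490 and 1099 to 334 and 326 (log2 fold change -1.95, SE 0.33, adjusted p = 0.0166, limma), a call lost without serum/-LIF replicate 1 or either Royalactin library. Without Nes, a gene set aside after its values were seen, the other 7 summed to 428 and 278 against 509 and 346, which overlap. Pax6, at 93.6 and 79.7 against 172 and 171, and Ncam1, at 49.5 and 26.9 against 97.6 and 73.7, were higher in both Royalactin libraries. Sox3 was lower in both, at 42.8 and 72.5 against 38.2 and 13.1 (log2 fold change -1.27, adjusted p = 0.717, limma). Of the 7 tested markers, 2 were higher and 2, Nes among them, lower without overlap (19.7% and 18.9% of all tested genes). The 11 fibroblast markers summed to 112 and 95.2 against 55.3 and 37.9, with Pdgfrb, Fap, Postn and Prrx1 at 0 in every library. The 7 trophoblast markers, with Elf5 at 0 in every library, summed to 195 and 213 against 343 and 416. Most of that difference was Tfap2c, at 37.4 and 104 against 214 and 310, without which the other 6 summed to 158 and 110 against 129 and 105 and overlapped. Of these 3 lists only the fibroblast markers still separated the groups without their most different gene, Dcn, at 74.9 and 64.2 against 55.3 and 37.9. Most of each such sum was Thy1, at 41.5 and 33.1 against 45.3 and 29.6, whose groups overlapped. The rest came from few reads per gene, as for Col3a1 with 16 and 6 against 0 and 5. Col1a2 had 0 and 1 reads against 10 and 0. The 7 neural crest markers summed to 382 and 241 against 293 and 275, and the 9 primitive endoderm markers to 2443 and 1287 against 1721 and 1269, and both overlapped. Whether a change in such cells had a part in the values of Cldn6, Twist1, Zeb1 or the keratins was not tested.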

How the data were processed

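RNA-seq of J1 mESCs was used, with 2 libraries each of serum/-LIF and serum/-LIF + Royalactin, assigned from the sample labels. Serum/+LIF libraries and ATAC-seq were not analysed here. RNA was depleted of ribosomal RNA. The methods describe cells after 10 passages in these media, and the labels give passage 40. Reads had been mapped by the authors to mm9 (TopHat, at most 2 mismatches) and summed per gene (HTSeq-count). The authors normalized the counts with DESeq, and the deposited values are this signal, proportional to reads (count divided by a size factor per library). Strand setting and counting annotation are not given in the sources used here. Reads were recovered by dividing by the smallest step of each library and served only for depth. No test on read counts was run.

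Log2(normalized count + 1) was compared between groups in limma 3.58.1 (R 4.3.3) for genes whose normalized counts averaged at least 10 (lmFit, eBayes with a variance trend, two-sided, Benjamini-Hochberg adjustment over 12993 genes). A pseudocount of 1 understates the change of low genes. The study's limits (p of 0.05, 2-fold) were applied without adjustment. The 10 genes and the lists were chosen with earlier results of these data known. Genes named from a list are those with an adjusted p under 0.05 and the tested genes with the highest and the lowest log2 fold change. An item that this rule selects is not reported here. Positions and exon lengths come from GENCODE on mm9, matched by symbol (90.8% of symbols, 94.5% of tested genes). Of the symbols, 27 have the form of dates. Exon tiles of 75 bases were mapped with minimap2 2.31-r1302. Scripts were run in Python 3.11.15 and tested on simulated data. Alternatives were pseudocounts of 0.1 and 5, other filters and scalings, the replicate block, no variance trend, each library left out, and, chosen after seeing the data, a correction for GC content and length (lowess, span 0.3).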

Additional observations from a re-analysis of the deposited data

How the results depend on the processing

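The number of genes called by limma (64 as reported) was 32 with a pseudocount of 0.1, 34 with all genes above 0, 99 with a mean of at least 50, 0 without the variance trend (1135 at an unadjusted p under 0.05), 247 with the correction for GC content and length, and between 0 (without serum/-LIF replicate 1, and without Royalactin replicate 2) and 60 when 1 library was left out, with 4 without Royalactin replicate 1. Genes past the study's limits (927) ranged from 519 to 1963 with 1 library left out. None of the 10 genes was called in any of these settings, and 1 to 3 of them passed the study's limits with 1 library left out. Over all genes with a mean of at least 10, deviations of same-numbered replicates correlated weakly between groups (r = 0.0851). The labels do not tie them either, so the numbers were not taken as pairs. The Rn45s share was higher in replicate 1 than in replicate 2 of both groups. It was 46.6% and 21.6% in serum/-LIF and 38.4% and 9.08% with Royalactin. Whether same-numbered libraries shared a batch was not tested. A fit with the replicate block called 391 genes, with 2 members, Zeb1 (3.0, adjusted p = 0.00279) and Cldn6 (-1.24, adjusted p = 0.0069). The replicate block with GC and length correction called 787 genes and 3 members, with Cdh1 added (-0.73, adjusted p = 0.00457). All 64 genes called as reported were among both. Reversed log2 fold changes, none of them called, were those of Cdh2 (-0.34 without serum/-LIF replicate 2, up to 1.18 without another library), Esrp1 (0.0078 without serum/-LIF replicate 1 and 0.031 without Royalactin replicate 2, down to -0.39), Ctnna2 (-0.69 and -0.28 without serum/-LIF replicate 1 and Royalactin replicate 1, up to 2.07), Cdh11 (-0.048 without serum/-LIF replicate 1, up to 0.27), Ets1 (0.017 without serum/-LIF replicate 1, down to -1.12) and Thy1 (0.037 with the total without Rn45s, 0.055 with the GC and length correction with or without the block, and -0.32 to 0.28 with 1 library left out). For the 8 tested members, 104 of the values under 14 alternatives kept their direction and side of the threshold, 5 passed it and 3 reversed. The direction of Zeb1 (1.52 to 4.47), Cldn6 (-1.55 to -0.93), Twist1 (-2.09 to -1.12), Cdh1 (-0.95 to -0.30), Zeb2 (-0.94 to -0.35) and Epcam (-0.80 to -0.11) held in all 14. The log2 cadherin ratio differed by -1.49 to -0.61 when 1 library was left out. For the other genes selected by the naming rule 414 values kept direction and side, 41 calls were lost, 10 were gained and 9 reversed. The causes were not tested. With 2 libraries per group the precision is set by their spread and by the variance trend that limma pools over all tested genes. For Snai1 and Snai2 it is set by depth.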

Other observations

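The pluripotency markers checked beside the cadherin genes included Sox2, Zfp42, Esrrb and Klf4, which rose by 1.52, 2.30, 2.87 and 3.88 on the log2 scale with Royalactin (adjusted p = 0.0368, 0.00371, 0.00273 and 0.00787, limma). Exon tiles of Zfp42 and Klf4 matched elsewhere in 56.5% and 23.1% of cases. Tdgf1, a Nodal co-receptor gene, had the lowest value of that list, at -0.45 (adjusted p = 0.730). These 4 calls were lost without serum/-LIF replicate 1, without either Royalactin library and without the variance trend, and that of Sox2 also with a pseudocount of 0.1, with all genes above 0 and without serum/-LIF replicate 2 (adjusted p = 0.072, 0.0786 and 0.0805), with adjusted p-values up to 0.602 for Esrrb, 0.662 for Zfp42 and Klf4 and 0.943 for Sox2.

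The 13 genes of the TGF-beta pathway, a known inducer of EMT, gave 12 tested genes, no call and a median log2 fold change of -0.17, with 2 lower and 1 higher without overlap. Tgfb1, a ligand, was at 61.5 and 39.3 normalized counts in serum/-LIF and 1.01 and 48.2 with Royalactin (-2.34, adjusted p = 0.655, limma). Without Royalactin replicate 1 its log2 fold change was -0.030, and without Royalactin replicate 2 it was -4.65. Eng, a co-receptor, was at 86.9 and 99.4 against 129 and 132 (0.48, adjusted p = 0.829).

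In the lineage lists the other extremes were Ncam1 (1.19, adjusted p = 0.656, limma), Dcn, listed at 37.4 and 31.1 normalized counts in serum/-LIF and at 0 in both Royalactin libraries, Thy1 (-0.017, adjusted p = 0.998), Gata4 (1.55, adjusted p = 0.680), Col4a1 (-0.78, adjusted p = 0.506), Ets1 (-0.55, adjusted p = 0.837), Tfap2c (2.03, adjusted p = 0.195) and Eomes (-0.41, adjusted p = 0.874), all as log2 fold changes. Ngfr was at 50.8 and 0 normalized counts in serum/-LIF and 52.3 and 70.9 with Royalactin (3.10, adjusted p = 0.576, limma), and its log2 fold change was 0.26 without serum/-LIF replicate 2, the library at 0, and 5.95 without serum/-LIF replicate 1.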
